A study of Mus musculus with 7 samples.

Results

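The large subunit of the cytosolic ribosome is built from ribosomal RNA and a set of ribosomal proteins, and 45 mouse genes for those proteins (Rpl3 to Rpl41 and the stalk genes Rplp0, Rplp1 and Rplp2) were followed in single oocytes. The genes were taken by symbol from a fixed list that leaves out their pseudogene copies. Of the 45, 44 were matched among the 37620 gene identifiers of the deposited table, and Rpl24 was not matched and is not analysed here. RNA was measured in 7 mature mouse oocytes, arrested in the second meiosis (MII), and each oocyte gave 1 library. The 4 KO oocytes (KO1 to KO4) were Hira f/f with Zp3-Cre, and the 3 WT oocytes (WT1, WT2 and WT4) were Hira f/f without Cre, so both genotypes carried the floxed Hira alleles. Hira encodes a chaperone that deposits the histone variant H3.3, and the Zp3 promoter drives Cre in growing oocytes, so the somatic cells of the follicle keep the gene. The cDNA kit primes on poly(A) tails, so the values count polyadenylated RNA. No strain, age or animal is given for any oocyte.

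The values are FPKM, fragments per kilobase of gene scaled to the reads of the library. Each genotype counts as 1 sample, because the labels name no animal, so no test is reported and every SD below is the spread between single oocytes (n = 4 KO and n = 3 WT). The oocytes held between 15340782 and 25940519 reads in genes. Hira itself was at 0.0784 ± 0.0362 FPKM in KO and 0.317 ± 0.028 FPKM in WT oocytes, with no overlap. All 11 matched oocyte markers of a fixed list reached 1 FPKM in at least 3 oocytes, and their summed level was 9953 ± 1038 FPKM in KO and 15947 ± 569 FPKM in WT oocytes, without overlap. From a list of 28 genes that mark cumulus or granulosa cells, 23 averaged under 1 FPKM and 12 were at 0 in every oocyte, among them Amh, Foxl2, Lhcgr and Tnfaip6. Their summed level lay between 243 and 307 FPKM in KO and between 206 and 274 FPKM in WT oocytes. The 5 that passed a filter of 1 FPKM in at least 3 oocytes all had a higher mean log2 level in KO, with a median difference of 0.40 and, after median-ratio scaling, of 0.21. Of these 5, 2 were over 1.5-fold higher in KO, Fshr (1.72) and Nr5a2 (1.26), where 22.6% of all genes that passed were. In 2 of the 5 every KO oocyte lay above every WT oocyte, where 18.9% of all genes that passed did so. The part of either marker list in the values below was not tested.

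A growing oocyte makes ribosomes and stores them for the embryo. Transcription is silent at MII, so the mRNA found there was made earlier and has been kept. The mRNAs of ribosomal proteins typically start with a run of pyrimidines at the 5′ end, the TOP motif (terminal oligopyrimidine), through which the mTOR pathway and LARP1 control their translation and stability. The proteins sit in the ribosome in equal numbers, apart from the stalk proteins, but their mRNAs need not be equally abundant.

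The large-subunit genes were far from equal in level, their summed level overlapped between the genotypes, and single members went both ways. Summed over the 44 genes, the level was 1114, 1430, 1315 and 915 FPKM in KO1 to KO4, against 1278, 1000.4 and 1358 FPKM in WT1, WT2 and WT4. The sum averaged 1193 ± 227 FPKM in KO and 1212 ± 188 FPKM in WT oocytes, and the genotypes overlapped. KO2 was the highest of all and KO4 the lowest, so the spread within KO was wider than the distance between the genotype means. The highest in mean level was Rpl17 at 214 FPKM and the lowest was Rpl9 at 0.0407 FPKM, a 5267-fold span, and the median member was at 6.02 FPKM. Of the 44 genes, 3 had a mean of at least 100 FPKM, 12 lay between 10 and 100, 23 between 1 and 10, and 6 under 1. The 3 highest, Rpl17, Rplp1 and Rpl32, held 49.5% of the summed level, and the 6 highest held 70.6%. These 3 values rest on the gene lengths behind the FPKM and differ per kilobase of transcript, as given with the lengths.

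**Figure D1:**
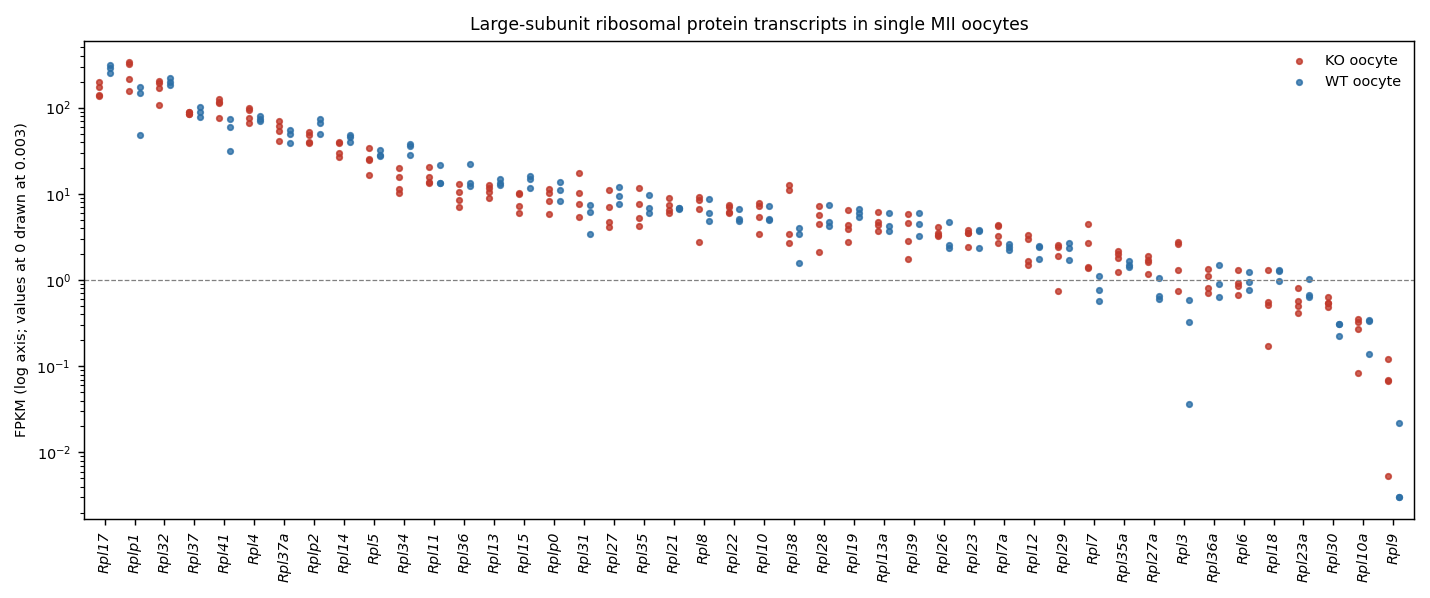
FPKM of 44 large-subunit ribosomal protein genes in each oocyte, on a log axis and ordered by the mean over all oocytes, with KO oocytes in red to the left and WT oocytes in blue to the right of each gene. The dashed line marks 1 FPKM. Levels run from 317 and 334 FPKM (Rplp1 in KO2 and KO3) to values at 0 (Rpl9 in WT1 and WT4), and the genotypes overlap in most genes.

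For the comparison, a gene had to reach 1 FPKM in at least 3 oocytes, which 39 of the 44 members and 8033 genes of the whole table did. The difference is the mean of log2(FPKM + 1) in KO minus that in WT, a scale that understates the change of low genes. On it, 6 of the 39 members were over 1.5-fold higher in KO, against 22.6% of all genes that passed. In the other direction 4 members were over 1.5-fold lower, against 7.92% of all genes. The higher members were Rplp1, Rpl3, Rpl41, Rpl38, Rpl7 and Rpl31, and the lower members were Rpl34, Rpl17, Rpl15 and Rpl36. Every KO oocyte lay above every WT oocyte in 5 members (Rpl41, Rpl3, Rpl7, Rpl7a and Rpl27a), where 18.9% of all genes did so. Both counts on the higher side include members that passed the filter only through KO, where they were high. Rpl3 reached 1 FPKM in 3 KO and 0 WT oocytes, and Rpl7 and Rpl27a in 4 KO oocytes and 1 WT oocyte. In 5 members (Rpl17, Rpl34, Rpl13, Rpl14 and Rpl15) every KO oocyte lay below every WT oocyte, where 8.94% of all genes did so.

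The median difference of the 39 members was -0.01, with 18 positive and 21 negative, beside a median of 0.18 and 63.8% positive over all genes that passed. Median-ratio scaling, which sets the typical gene of each oocyte equal, moved the median of all genes to -0.01 and that of the members to -0.22. Quantile normalization gave 0.00 for all genes and -0.23 for the members. The members' median lay below that of all genes under each of the 3 scalings. Median-ratio scaling divides each oocyte by a single factor and shifts members and all genes nearly alike, so it is not separate support. Between the KO oocytes, the members' median against the WT mean had an SD of 0.21 as deposited. With median-ratio scaling 5 members were over 1.5-fold higher and 8 lower, beside 14.8% higher and 14% lower of all genes. The 4 added on the lower side were Rpl27 (-0.75), Rplp2 (-0.73), Rpl14 (-0.64) and Rpl19 (-0.62). Under all 3 scalings, 5 were higher (Rplp1, Rpl3, Rpl41, Rpl38 and Rpl7), of which Rpl3 and Rpl7 passed the filter through KO. The 4 lower under all 3 scalings were Rpl34, Rpl17, Rpl15 and Rpl36. With a pseudocount of 5 in place of 1, Rplp1 and Rpl41 stayed over 1.5-fold higher and Rpl34 and Rpl17 lower. The other 6 that were past 1.5-fold as deposited did not. Leaving out 1 oocyte at a time moved the members' median between -0.14 (without WT2) and 0.06 (without KO4).

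**Figure D2:**
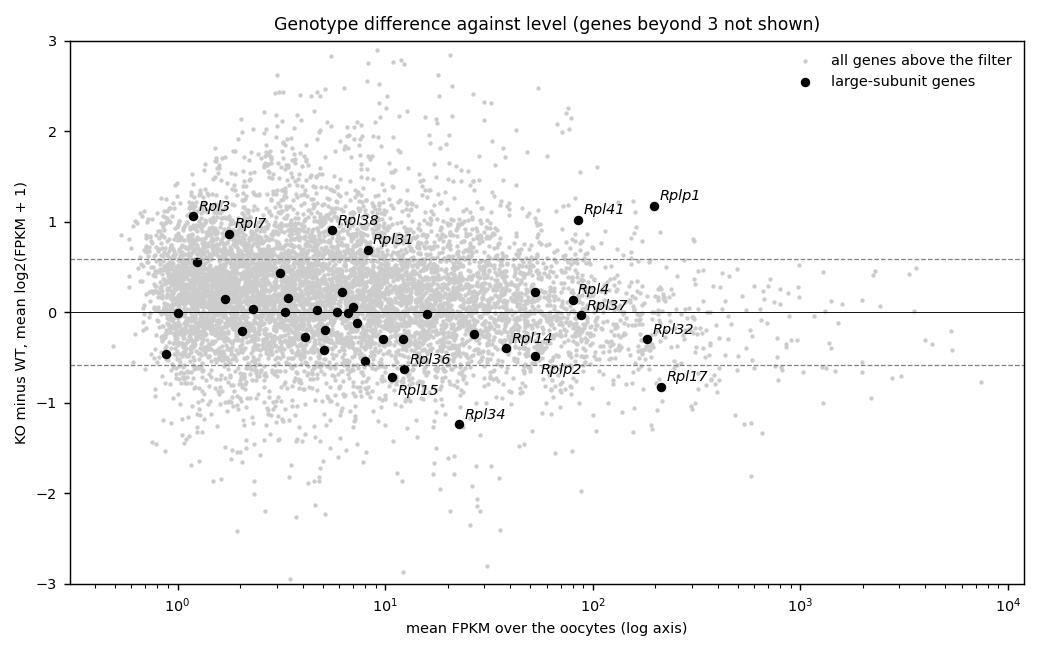
Difference between the genotypes (mean log2(FPKM + 1), KO minus WT) against mean FPKM on a log axis, for the 39 large-subunit genes above the filter (black) and all 8033 genes above it (grey); dashed lines mark 1.5-fold. The members lie on both sides of 0, with Rplp1 (1.18) and Rpl41 (1.02) high and Rpl34 (-1.24) and Rpl17 (-0.82) low among the abundant ones.

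The RefSeq promoter table (GRCm38.p6) holds 40 start windows of 34 of the 45 listed genes, each with 250 bases before and 50 after the start, against 32851 windows of all genes. The motif of ETS factors, searched as CCGGAAG on both strands, was in 35% of the member windows and 8.86% of all windows. The GC box GGGCGG, on both strands, was in 65% and 35.7%. TATAA, on both strands, was in 20% and 24.9%. A run of at least 6 pyrimidines that reaches within 10 bases of the start, on the coding strand, was in 55% and 29.2%. CTTTC within the same distance, which such a run may overlap, was in 20% and 2.44%. A match is a description of the letters and not a site. A pyrimidine run counted here may end before the start, so it is not by itself a TOP motif. Among the members past 1.5-fold, the 3 higher ones with a window (Rpl31, Rpl38 and Rpl41) and the 2 lower ones (Rpl15 and Rpl34) all held CCGGAAG, as did 8 of the 25 members within 1.5-fold that had a window.

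The start windows of these members are shown because a TOP motif would begin at the first transcribed base. Each runs from 20 bases before the start through the first 10 transcribed bases, and capitals mark the longest run of at least 6 pyrimidines that reaches within 10 bases of the start.
Rpl31 (chr1:39367831-39367860, plus strand): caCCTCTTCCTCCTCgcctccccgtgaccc
Rpl38 (chr11:114668560-114668589, plus strand): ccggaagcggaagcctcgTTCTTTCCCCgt
Rpl41 (chr10:128549159-128549188, minus strand): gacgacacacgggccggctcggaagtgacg
Rpl15 (chr14:18270977-18271006, minus strand): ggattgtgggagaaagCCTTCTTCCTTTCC
Rpl34, upstream start (chr3:130730389-130730418, minus strand): cgcgccgCCTTCCCTgacgtacttcctgtc
Rpl34, downstream start (chr3:130730328-130730357, minus strand): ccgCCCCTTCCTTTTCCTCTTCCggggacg
The run of Rpl15 goes on past the window, to 17 pyrimidines, and that at the downstream start of Rpl34 has 20. The marked runs of Rpl31 and of the upstream start of Rpl34 end before the annotated start. Those marked runs are thus not part of an RNA that begins there. Only the longest run is marked, and both windows also hold a shorter one of at least 6 pyrimidines. In Rpl31 this is cctcccc, which spans the annotated start. At the upstream start of Rpl34 it is cttcct, which lies among the first transcribed bases. Rpl41 has no such run at its annotated start, where the longest is 3.

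The upstream sequences of Rpl41 and Rpl15, members with opposite differences, are shown with CCGGAAG or its reverse complement in capitals.
Rpl41 (chr10:128549169-128549418, minus strand): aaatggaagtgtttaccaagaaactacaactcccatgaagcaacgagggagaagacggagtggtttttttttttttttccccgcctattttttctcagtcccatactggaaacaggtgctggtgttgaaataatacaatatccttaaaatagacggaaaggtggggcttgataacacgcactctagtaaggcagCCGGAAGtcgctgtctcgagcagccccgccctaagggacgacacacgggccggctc
Rpl15 (chr14:18270987-18271236, minus strand): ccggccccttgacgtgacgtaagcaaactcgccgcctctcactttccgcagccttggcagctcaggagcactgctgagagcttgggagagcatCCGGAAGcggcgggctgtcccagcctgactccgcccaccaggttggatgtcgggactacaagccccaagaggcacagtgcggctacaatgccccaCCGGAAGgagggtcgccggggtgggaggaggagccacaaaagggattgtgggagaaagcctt
Rpl41 held 1 match and Rpl15 held 2, all within 250 bases before the start. Both members thus carry the motif, with differences of 1.02 for Rpl41 and -0.72 for Rpl15.

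The members' medians lay below those of all genes both among abundant and among scarce genes. Of 15 members with a mean of at least 10 FPKM, 2 exceeded 1.5-fold upward and 4 downward, around a median of -0.30. All genes in that range had a median of 0.07, with 16.3% higher and 9.63% lower. Of 24 members under 10 FPKM, 4 were higher and 0 lower, with a median of 0.02, where all genes had 0.24, with 25.9% higher and 7.01% lower. Among these 4 were Rpl3 and Rpl7, which passed the filter only through KO. After median-ratio scaling the medians were -0.53 for the 15 and -0.17 for the 24 members, beside -0.17 and 0.08 for all genes in those ranges. Across the 39 members, Spearman's rho between difference and mean level was -0.27, as a description of values that share the same libraries.

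The stalk is a flexible arm of Rplp0, Rplp1 and Rplp2 held by Rpl12 at its base, and it recruits the translation factors that split GTP. Its members did not move together. Rplp1 was at 212, 317, 334 and 155 FPKM in KO1 to KO4, against 149, 47.5 and 172 FPKM in WT1, WT2 and WT4. It had the highest positive difference of the members, 1.18, with 255 ± 85.6 FPKM in KO and 123 ± 66.1 FPKM in WT oocytes, yet KO4 lay below WT4. WT2 stood far below the other WT oocytes, and without it the difference was 0.60. Rplp2, which pairs with Rplp1 in the ribosome, was at 39.7, 52.6, 47.7 and 39 FPKM in KO1 to KO4, against 74.5, 49.6 and 66.7 FPKM in WT1, WT2 and WT4. Its difference was -0.49, and it overlapped only through WT2, which lay below KO2. The anchor Rplp0 was at 5.83, 11.3, 10.2 and 8.23 FPKM in KO1 to KO4, against 8.36, 11 and 13.7 FPKM in WT1, WT2 and WT4, with wide overlap and a difference of -0.29. Rpl12 was at 1.68, 3.36, 3 and 1.5 FPKM in KO1 to KO4, against 2.43, 1.77 and 2.48 FPKM in WT1, WT2 and WT4, with a difference of 0.03. The summed level of the 4 stalk genes was 311 ± 94.2 FPKM in KO and 199.6 ± 78.4 FPKM in WT oocytes, which is mostly Rplp1. These sums overlapped, at 259, 384, 395 and 204 FPKM in KO1 to KO4, against 235, 109.9 and 254 FPKM in WT1, WT2 and WT4. As a share of all reads in genes the stalk genes held 0.0348% ± 0.00835 in KO and 0.0333% ± 0.00789 in WT oocytes.

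Rpl5 and Rpl11 carry the 5S ribosomal RNA into the subunit and can bind MDM2, the ubiquitin ligase that restrains p53. Neither passed 1.5-fold. Rpl5 was at 24.8, 34.5, 25.1 and 16.4 FPKM in KO1 to KO4, against 27.1, 32 and 27.9 FPKM in WT1, WT2 and WT4, a difference of -0.24, with KO4 the lowest and KO2 the highest. Rpl11 was at 15.6, 20.3, 13.4 and 13.6 FPKM in KO1 to KO4, against 21.8, 13.2 and 13.5 FPKM in WT1, WT2 and WT4, a difference of -0.02, with WT1 the highest of all oocytes.

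The proteins around the exit tunnel line the path by which the nascent chain leaves or ring its mouth, where chaperones and targeting factors dock. Of 9 listed genes 8 passed the filter, with 1 higher (Rpl31), 1 lower (Rpl17) and a median of 0.01, where 22.6% of all genes were higher and 7.92% lower. Rpl17, whose long loop reaches into the tunnel, was at 171, 197, 138 and 139.7 FPKM in KO1 to KO4, against 291, 250.1 and 312 FPKM in WT1, WT2 and WT4. All KO oocytes lay below all WT oocytes, at 162 ± 28.2 FPKM in KO and 285 ± 31.6 FPKM in WT oocytes, with the KO mean at 0.568 times the WT mean and a difference of -0.82. Leaving out any single oocyte kept this difference between -0.92 and -0.75. Rpl4, whose loop also lines the tunnel, was at 67.2, 97.8, 75.5 and 94.3 FPKM in KO1 to KO4, against 74, 80.7 and 70.9 FPKM in WT1, WT2 and WT4. It overlapped, with a difference of 0.14 as deposited and -0.10 after median-ratio scaling. Rpl31, at the tunnel mouth, was at 7.54, 17.4, 10.4 and 5.41 FPKM in KO1 to KO4, against 7.43, 3.41 and 6.09 FPKM in WT1, WT2 and WT4. KO2 stood far above the rest and KO4 lay below WT1 and WT4, and the difference of 0.69 was 0.41 without KO2 and 0.42 without WT2, under 1.5-fold. It was also under 1.5-fold with median-ratio scaling (0.48). The other members of the ring, Rpl19, Rpl22, Rpl26, Rpl35 and Rpl39, had differences between -0.42 (Rpl19) and 0.22 (Rpl22).

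The proteins of the subunit face and active centre reach the site of peptide bond formation or the contact with the small subunit. Of 7 that passed the filter, 2 were higher (Rpl3 and Rpl41), 0 were lower and the median was 0.00, where 22.6% of all genes were higher and 7.92% lower. Rpl41, a very short basic peptide in a bridge between the subunits, whose start lacks the pyrimidine run, was at 114, 125, 116 and 76 FPKM in KO1 to KO4, against 59.4, 31.3 and 74.6 FPKM in WT1, WT2 and WT4. Every KO oocyte lay above every WT oocyte, KO4 only narrowly above WT4. The means were 108 ± 21.9 FPKM in KO and 55.1 ± 22 FPKM in WT oocytes, 1.96-fold higher, with a difference of 1.02 that was 0.66 without WT2. Rpl3, whose loop reaches toward the peptidyl transferase centre, was at 2.74, 2.59, 1.29 and 0.739 FPKM in KO1 to KO4, against 0.0361, 0.581 and 0.323 FPKM in WT1, WT2 and WT4. It was scarce but did not overlap, with a difference of 1.06. It passed the filter through 3 KO oocytes and 0 WT oocytes, so it entered the comparison through KO alone. It had 237 reads in KO and 28 in WT oocytes, a rate per read in genes 5.37 times that of WT (95% interval 3.62 to 8.26), an interval of counting error only. Of the WT reads most came from WT2, and 85.6% of the sequence of Rpl3 is found in other annotated transcripts, so its reads cannot be assigned with certainty. The core protein gene Rpl8 was at 6.73, 9.21, 8.39 and 2.78 FPKM in KO1 to KO4, against 4.84, 5.94 and 8.67 FPKM in WT1, WT2 and WT4. Rpl10, which completes the active site late in assembly, was at 5.35, 7.89, 7.14 and 3.41 FPKM in KO1 to KO4, against 5.09, 5.01 and 7.17 FPKM in WT1, WT2 and WT4. Both overlapped, with differences of -0.01 and 0.00, and KO4 was the lowest oocyte for each.

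Among the other members, Rpl34 stood furthest below WT. It was at 10.2, 15.5, 19.7 and 11.5 FPKM in KO1 to KO4, against 36.1, 28.1 and 38.1 FPKM in WT1, WT2 and WT4. The genotypes did not overlap, at 14.2 ± 4.3 FPKM in KO and 34.1 ± 5.31 FPKM in WT oocytes, with the KO mean at 0.417 times the WT mean. The difference of -1.24 lay between -1.40 and -1.10 when 1 oocyte was left out. Rpl15, a core protein that binds ribosomal RNA and whose start carries a long run, was at 7.23, 9.85, 10.2 and 6.01 FPKM in KO1 to KO4, against 16, 11.6 and 15 FPKM in WT1, WT2 and WT4, a difference of -0.72 without overlap. Rpl36 was at 10.6, 13, 8.39 and 7.09 FPKM in KO1 to KO4, against 12.3, 13.2 and 22 FPKM in WT1, WT2 and WT4. Its difference of -0.63 leaned on WT4, which was far above the rest, and was -0.38 without it. It was also under 1.5-fold without KO3 (-0.57) or KO4 (-0.50). Rpl13 and Rpl14 did not overlap either but were under 1.5-fold, with differences of -0.30 for Rpl13 and -0.40 for Rpl14. After median-ratio scaling Rpl14 was over 1.5-fold lower, at -0.64.

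Rpl38, which in mouse embryos is needed for the translation of certain Hox mRNAs, was at 2.68, 12.7, 11.1 and 3.41 FPKM in KO1 to KO4, against 3.43, 1.57 and 3.99 FPKM in WT1, WT2 and WT4. KO2 and KO3 stood far above all other oocytes, while KO1 and KO4 lay among the WT values. The difference of 0.91 was 0.59 without KO2 and 0.61 without WT2. Rpl7, an RNA-binding protein of the subunit, was at 1.38, 2.66, 4.51 and 1.41 FPKM in KO1 to KO4, against 0.565, 1.11 and 0.765 FPKM in WT1, WT2 and WT4. No WT oocyte reached the lowest KO oocyte, and the difference was 0.87. Rpl7a and Rpl27a, which also encode proteins of the subunit, were higher in all KO than in all WT oocytes but under 1.5-fold on the log2(FPKM + 1) scale. Rpl7a was at 3.63 ± 0.796 FPKM in KO and 2.4 ± 0.182 FPKM in WT oocytes, a difference of 0.43. Rpl27a was at 1.6 ± 0.304 FPKM in KO and 0.768 ± 0.243 FPKM in WT oocytes, a difference of 0.56. Rpl7 and Rpl27a reached 1 FPKM in all 4 KO oocytes but in 1 WT oocyte, WT2, so both passed the filter through KO. Median-ratio scaling left 1 member, Rpl3, with all KO oocytes above the WT oocytes, where 12.5% of all genes lay so, and Rpl41, Rpl7, Rpl7a and Rpl27a overlapped. It put all KO oocytes below the WT oocytes in 11 members, where 14.9% of all genes lay so.

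Other abundant members overlapped between the genotypes. Rpl32 was at 168, 203, 194 and 108 FPKM in KO1 to KO4, against 199.8, 184 and 224 FPKM in WT1, WT2 and WT4. KO2 and KO3 lay within the WT range and KO4 was far below it, with a difference of -0.30. Rpl37 was at 85.1, 83.7, 88.7 and 89.9 FPKM in KO1 to KO4, against 102, 77.2 and 89.9 FPKM in WT1, WT2 and WT4. This was the most even member among the KO oocytes of the 6 highest, 86.9 ± 2.91 FPKM in KO and 89.6 ± 12.2 FPKM in WT oocytes, a difference of -0.04 as deposited and -0.28 after median-ratio scaling.

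The 5 members under the filter were Rpl6, Rpl9, Rpl10a, Rpl23a and Rpl30. Rpl6 was at 0.943 ± 0.27 FPKM in KO and 0.985 ± 0.241 FPKM in WT oocytes. Rpl10a, which forms the L1 stalk at the exit site of tRNA, was at 0.26 ± 0.123 FPKM in KO and 0.274 ± 0.117 FPKM in WT oocytes. Rpl23a, a docking site at the tunnel mouth, was at 0.574 ± 0.171 FPKM in KO and 0.777 ± 0.226 FPKM in WT oocytes. The genotypes overlapped in all of these. Rpl30 was at 0.544, 0.639, 0.549 and 0.49 FPKM in KO1 to KO4, against 0.305, 0.223 and 0.306 FPKM in WT1, WT2 and WT4. It was low, yet the genotypes did not overlap and KO was higher, with 259 reads in KO and 80 in WT oocytes, a rate per read in genes 2.05 times that of WT (95% interval 1.59 to 2.67). Rpl9 was at 0.00539, 0.07, 0.0666 and 0.121 FPKM in KO1 to KO4, against 0, 0.0217 and 0 FPKM in WT1, WT2 and WT4. It had 67 reads in KO and 5 in WT oocytes, a rate per read in genes 8.5 times that of WT (95% interval 3.47 to 27). KO1 lay below WT2, so the genotypes overlapped for Rpl9. The intervals of Rpl30 and Rpl9 pool the oocytes of a genotype and cover counting error only. Between 77.7% and 93.3% of the sequence of Rpl9, Rpl10a, Rpl23a and Rpl30, and 64.3% of that of Rpl6, is found in other transcripts.

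The oocytes differed in the same way across many members. Among the KO oocytes, KO2 was the highest in 21 of the 39 members and KO3 in 13, whereas KO2 was the highest in 33.4% and KO3 in 20.1% of all genes that passed. KO4 was the lowest in 24 of the 39 members and in 25% of all genes. Among the WT oocytes, WT2 was the lowest in 22 members (41.2% of all genes) and WT4 the highest in 19 (30.5%). Against the WT mean, the members' median was -0.13, 0.25, 0.04 and -0.22 in KO1 to KO4, where all genes had 0.17, 0.28, 0.13 and 0.15 in the same oocytes. Each WT oocyte was set against the mean of the other WT oocytes. The members' median was then 0.10, -0.23 and 0.17 in WT1, WT2 and WT4, where all genes had 0.12, -0.11 and -0.01. The members' medians of KO1, KO3 and KO4 lay within this WT range. With median-ratio scaling KO3 was the highest KO oocyte in 23 members (27.6% of all genes), KO2 in 11 (19.8%), and KO4 the lowest in 25 (22.6%). On the WT side WT4 was then the highest in 21 members (30.2% of all genes), and WT1 and WT2 were each the lowest in 16 (38.2% of all genes for WT1 and 29.7% for WT2). KO4 was most often the lowest KO oocyte under both scalings, while which KO oocyte led, and whether WT2 alone was most often the lowest WT oocyte, depended on the scaling.

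**Figure D3:**
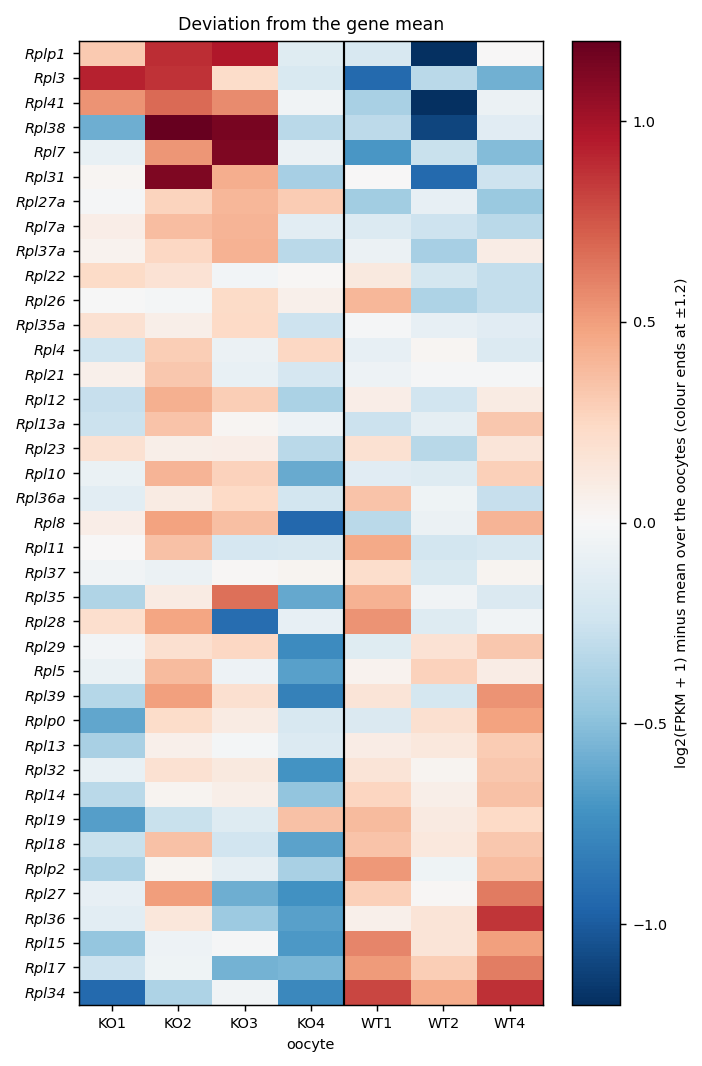
Deviation of each oocyte from the gene's mean over the oocytes, in log2(FPKM + 1), for the 39 large-subunit genes above the filter, with KO oocytes left of the line and WT oocytes right of it, ordered by the difference between the genotypes. Blue squares gather in KO4, the lowest KO oocyte in 24 members, and in WT2, the lowest WT oocyte in 22 as deposited and in 16 after median-ratio scaling, as was WT1.

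Processed pseudogenes have copied these genes many times over, and their reads are hard to assign. A median of 58.7% of the 50-base windows of a member's RefSeq-linked transcript also occurred in a transcript of another annotated gene, with a range from 5.19% (Rpl22) to 95.1% (Rpl35). Of the 44 members, 26 were over 50% shared, against 3.63% of 7193 genes that passed the filter, whose median was 0. The 32 small-subunit ribosomal protein genes had a median of 51.5%. With windows of 36 bases the members' median was 62.3% and with windows of 100 bases 43.3%. Each member had between 1 and 121 annotated pseudogenes that hold such a window, with a median of 10.5, and the most for Rpl7a. Members over 50% shared had a median level of 4.05 FPKM and the 18 under 50% shared one of 8.42 FPKM. Spearman's rho over the 44 members was -0.35 between mean level and shared sequence, and over the 39 above the filter -0.02 between difference and shared sequence. Among the 18 under 50% shared, 1 was over 1.5-fold higher (Rpl38) and 2 were lower (Rpl15 and Rpl34), beside 22.6% higher and 7.92% lower of all genes.

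The table also lists 408 pseudogene copies of the members, of which 146 had a value and 10 passed the filter. Their summed level was 128 ± 27.9 FPKM in KO and 81.2 ± 9.6 FPKM in WT oocytes, without overlap. Without 1 copy, Gm10136, the genotypes overlapped, with sums of 101, 107, 73 and 69.6 FPKM in KO1 to KO4, against 67.2, 74.1 and 81.1 FPKM in WT1, WT2 and WT4. The 10 copies above the filter had a median difference of -0.08, with 4 over 1.5-fold higher and 1 lower, beside 22.6% and 7.92% of all genes. Among the 4 higher, Gm9435, which shares sequence with Rpl6, reached 1 FPKM in no WT oocyte, and Rpl12-ps2 only in WT2. Both thus passed the filter mostly through KO, where they were high. Gm10136, the copy with the widest gap in FPKM, shares sequence with Rpl26. Gm10136 was at 55, 40.3, 24.2 and 43.7 FPKM in KO1 to KO4, against 3.36, 9.98 and 8.03 FPKM in WT1, WT2 and WT4. Every KO oocyte lay far above every WT oocyte, while Rpl26 itself, which binds at the tunnel mouth, was at 3.55 ± 0.37 FPKM in KO and 3.21 ± 1.31 FPKM in WT oocytes with overlap. Rpl37rt, a copy of Rpl37, was at 47.9 ± 8.36 FPKM in KO and 48.8 ± 3.72 FPKM in WT oocytes, overlapping as Rpl37 did.

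Rpl34-ps1, a copy of the member furthest below WT, was at 6.22, 8.5, 0.543 and 0.303 FPKM in KO1 to KO4, against 0, 0.0544 and 0.143 FPKM in WT1, WT2 and WT4. Its reads were nearly all from KO oocytes, and KO1 and KO2 were far above KO3 and KO4. Reads of Rpl34 and its copies that fall in shared sequence cannot be told apart, and all copies of Rpl34 together held 282 reads in KO and 13 in WT oocytes, beside 2567 reads in KO and 3655 in WT oocytes for Rpl34 itself. Rpl12-ps2, a copy of Rpl12, was at 0.161, 4.97, 5.18 and 4.1 FPKM in KO1 to KO4, against 0, 1.3 and 0 FPKM in WT1, WT2 and WT4. KO2 to KO4 were above the WT oocytes and KO1 was not. These copies were chosen after their values were seen.

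The level order of the members also depends on the gene length behind the FPKM. The reads recovered from the FPKM steps imply lengths that are between 0.927 and 13.0 times that of the RefSeq-linked transcript, within 20% of it for 10 of the 44 members and over 2 times for 27. The highest ratio was that of Rpl9, and the ratio was 7.50 for Rpl41 and 0.994 for Rplp1. With that transcript's length and the reads in genes of each library, reads per kilobase (RPKM) put Rpl41 highest, at 974 ± 199.8 RPKM in KO and 488 ± 193 RPKM in WT oocytes, whereas by FPKM it ranked 5. Rpl17, Rplp1 and Rpl32 followed at 255.8, 236 and 219 RPKM over all oocytes. The span of mean levels was then 1205-fold, against 5267-fold by FPKM. The 3 highest held 46.2% of the summed RPKM, and the 6 highest held 65.1%. Rplp2 moved up to rank 5 and Rpl9 stayed the lowest. Spearman's rho between both measures over the 44 members was 0.90. On the transcript scale the summed level in KO was 1.13 times that in WT, against 0.985 times as deposited.

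**Figure D4:**
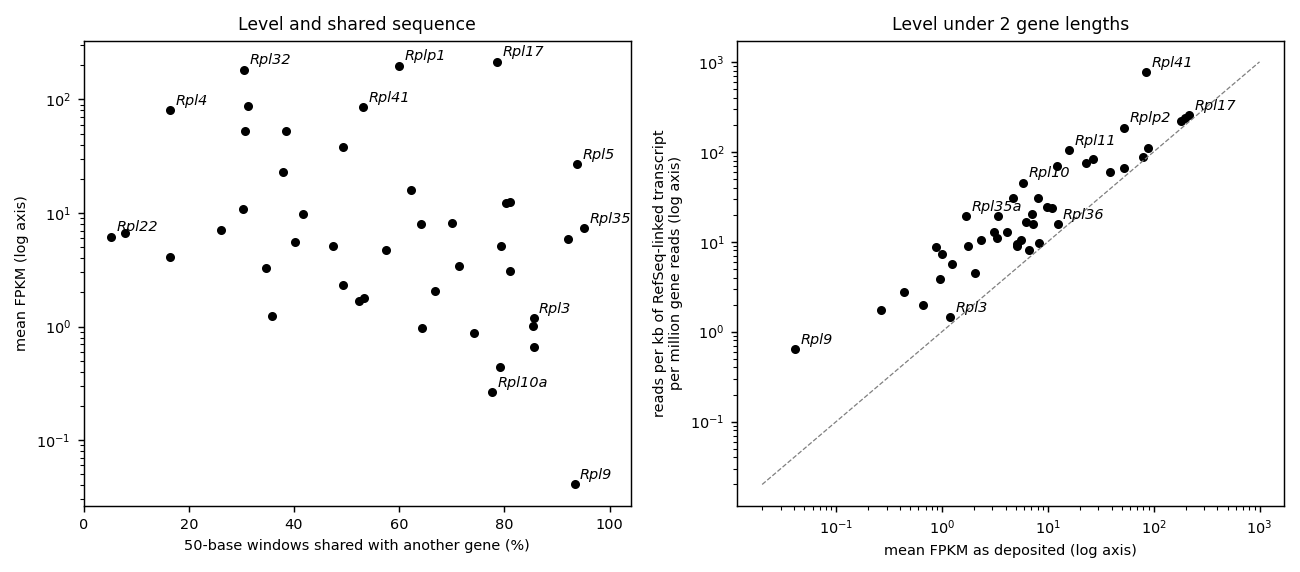
Left, mean FPKM (log axis) of the 44 members against the percent of 50-base windows of their transcript that another annotated gene also holds. Right, RPKM on the RefSeq-linked transcript against FPKM as deposited, both on log axes, with the dashed line at equality; Rpl41 leaves the line by most among the abundant members, and Rpl9 is lowest on both axes.

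Of 6 paralogs, some of which can replace a member in some tissues, 4 passed the filter, Rpl22l1, Rpl36al, Rpl7l1 and Rpl39l. Rpl3l, the form of muscle, was listed at 0 in every oocyte. Rpl10l, the retrogene of Rpl10 that testis uses in meiosis, was at 0.254, 0.576, 1.38 and 1.36 FPKM in KO1 to KO4, against 0.0962, 0 and 0 FPKM in WT1, WT2 and WT4. The lowest KO oocyte was above the highest WT oocyte, with 99 reads in KO and 2 in WT oocytes, a rate per read in genes 31.4 times that of WT (95% interval 8.47 to 263). Rpl22l1 was at 3.92 ± 1.86 FPKM in KO and 3.23 ± 1.76 FPKM in WT oocytes, and Rpl36al at 2.19 ± 0.902 FPKM in KO and 1.68 ± 0.744 FPKM in WT oocytes. Rpl7l1 was at 0.871 ± 0.837 FPKM in KO and 1.52 ± 0.272 FPKM in WT oocytes, and Rpl39l at 5.89 ± 3.95 FPKM in KO and 4.94 ± 1.62 FPKM in WT oocytes. These 4 overlapped between the genotypes, and by FPKM Rpl39l and Rpl36al had a higher mean than Rpl39 and Rpl36a. Per kilobase of transcript the order of the first pair was reversed, with 10.4 RPKM for Rpl39l and 12.9 RPKM for Rpl39 over all oocytes. Rpl36al stayed above Rpl36a on that scale, at 11.5 against 7.27 RPKM. Rpl36a was at 0.989 ± 0.287 FPKM in KO and 1.02 ± 0.445 FPKM in WT oocytes. Rpl39, whose testis form is Rpl39l, was at 3.77 ± 1.81 FPKM in KO and 4.56 ± 1.44 FPKM in WT oocytes.

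The factors that build the subunit and the regulators of TOP mRNAs did not share 1 direction either. Among the assembly factors, 34 passed the filter, of which 4 exceeded 1.5-fold upward and 1 downward, around a median of -0.08, beside 22.6% and 7.92% of all genes. Nmd3, the adaptor that exports the large subunit from the nucleus, was at 51.2, 52.5, 70.8 and 60.6 FPKM in KO1 to KO4, against 90.7, 119 and 102 FPKM in WT1, WT2 and WT4, with no overlap and a difference of -0.81. The nucleolar GTPase gene Gnl3l was at 2.22 ± 1.02 FPKM in KO and 0.806 ± 0.202 FPKM in WT oocytes, a difference of 0.78, and the helicase gene Ddx27 at 3.87 ± 0.932 FPKM in KO and 1.97 ± 0.734 FPKM in WT oocytes, a difference of 0.72. The genotypes did not overlap for Ddx27, and KO1 lay just below WT4 for Gnl3l. Gnl3l, 1 of the 4 higher factors, averaged under 1 FPKM in WT oocytes and passed the filter mostly through KO, where it was high. With median-ratio scaling, 1 of the 34 was higher and 8 were lower, beside 14.8% and 14% of all genes. Of 9 genes of TOP mRNA control, 2 were higher, 0 lower, and the median was 0.21, beside 22.6% higher and 7.92% lower of all genes. After median-ratio scaling 1 of the 9 was higher and 1 lower, with a median of 0.06. Eif4ebp1, an inhibitor of cap-dependent translation that mTOR releases, was at 2.12 ± 1.07 FPKM in KO and 0.543 ± 0.49 FPKM in WT oocytes. Its WT mean was under 1 FPKM, and it passed the filter mostly through KO, where it was high. Cnbp, which binds TOP mRNAs, was at 92.1 ± 9.01 FPKM in KO and 60.7 ± 1.47 FPKM in WT oocytes. Neither gene overlapped between the genotypes. Larp4, which binds poly(A) tails, was lower in every KO oocyte (40.7 ± 5.25 FPKM in KO and 56.3 ± 3.09 FPKM in WT oocytes), with a difference of -0.46. Larp1 itself was under the filter, at 0.505 ± 0.362 FPKM in KO and 0.219 ± 0.0476 FPKM in WT oocytes.

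The genes of the small subunit also went both ways. Among 30 that passed the filter, 3 exceeded 1.5-fold upward and 6 downward, around a median of -0.15, beside 22.6% higher and 7.92% lower of all genes, and their summed level was 578 ± 115 FPKM in KO and 589 ± 38 FPKM in WT oocytes. Median-ratio scaling gave 1 higher and 12 lower of the 30, with a median of -0.35, beside 14.8% higher and 14% lower of all genes. The difference between both subunits' medians was not tested.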

How the data were processed

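The deposited table gives FPKM per Ensembl gene and oocyte, computed by the authors. The submitters' processing notes name the mm9 build and, with no role for each, HTSeq, edgeR 3.1.10, TopHat, TopHat2 2.0.2, Bowtie2 and Bowtie 0.12.8. Symbols came from GENCODE M21, which named 87.4% of the identifiers, and no coordinates of the authors' genes are given. Spike-in values were not used here, so levels are relative to the other RNA of the oocyte.

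Differences are means of log2(FPKM + 1), KO minus WT, for genes at 1 FPKM or more in at least 3 oocytes. "Over 1.5-fold" is on that scale, and ratios of means are on FPKM. Read counts were recovered from the steps of the FPKM values for all 18300 genes with a value (whole within 0.01). They are the smallest whole counts possible, so true counts could be a multiple of them. On simulated FPKM, 99.1% of 2536 genes came back exactly. Intervals are 95% Poisson or Clopper-Pearson intervals and cover counting error only, since amplified cDNA without molecular identifiers does not give independent molecules. Shared sequence was counted as 50-base windows of the transcript found in any transcript of another gene, on either strand.

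The members and gene lists were chosen with earlier results of these data known. The named genes were the 10 members with the largest absolute difference above the filter, the 6 with the highest mean FPKM, those under the filter, the stalk and 5S genes, all paralogs, and the 3 assembly and 3 TOP control genes with the largest absolute difference. Other members were named for their role or after their values were seen. Among the KO oocytes, 50 groups of values were searched for 1 oocyte standing apart from the rest (Dixon's ratio), and 0 were flagged. With 4 KO oocytes the ratio has little power, so this does not show that no oocyte stood apart. The search did not cover the WT oocytes. Python 3.11.15, pandas 2.3.3, numpy 2.4.6, scipy 1.17.1 and matplotlib 3.10.9 were used.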

Additional observations from a re-analysis of the deposited data

How the results depend on the processing

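With 1 oocyte left out, the members' median difference (-0.01) ranged from -0.14 to 0.06, the ratio of summed levels (0.985) from 0.906 to 1.06, the members over 1.5-fold higher (6) from 5 to 7 and lower (4) from 3 to 6, and the members not overlapping from 5 to 8 higher and from 5 to 10 lower. The 10 came without KO2 and the 8 without KO4. A pseudocount of 5 left 2 members higher and 2 lower. A filter at 10 FPKM left a median of -0.30, with 2 higher and 1 not overlapping above. Median-ratio scaling gave a median of -0.22, 8 lower, and 1 and 11 not overlapping above and below. Quantile normalization gave -0.23, 7 lower, and 2 and 9. Among the 18 members with a low share of sequence in common with other genes, with the limit of 50%, though not the comparison, set after the data were seen, 1 was higher and 2 lower, with 1 and 3 not overlapping. Of all genes that passed, 22.6% were higher and 7.92% lower, and 18.9% and 8.94% did not overlap above and below. Reads per kilobase of RefSeq-linked transcript, an alternative chosen after seeing the data, left 3 not overlapping below. The filter at 10 FPKM and the limit on shared sequence count fewer members by construction, and for the other settings the cause was not tested. Of 262 values of 23 named members under alternatives, 16 moved by more than the spread between oocytes and 0 past 1.5-fold changed sign. No paired analysis was possible because the numbers in the labels only name oocytes and no animal, day or lane ties a KO to a WT oocyte. Depth limits the scarce members most: Rpl9 had 72 reads over all oocytes.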
